A study of Mus musculus with 10 samples.

Results

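The genes described here are 9 costimulatory and checkpoint genes of antigen-presenting cells: Cd80, Cd86, Icosl, Cd40, Cd83, Cd274, Pdcd1lg2, Vsir and Havcr2. They were selected by name, as the rows of the count table with these symbols; all 9 were found among 21866 gene symbols, and all 9 passed the filter on low counts. The table holds 10 RNA sequencing libraries of sorted mouse retinal cells that carry WT in their titles, 5 CD36-positive (numbered 1, 2, 3, 4 and 7) and 5 CD36-negative (numbered 1, 2, 4, 7 and 8). Both groups came from the gate of live, CD11b-positive cells with intermediate CD45, which the labels call microglia, and were divided by surface CD36, a scavenger receptor that takes up lipids. The protocol describes mice injected with sodium iodate at 20 mg/kg, which damages the pigment epithelium under the retina, or with PBS, and eyes collected 7 days later. The labels do not state which of these the sorted mice received, nor their age, nor whether the libraries came from separate animals. The p-values below therefore measure the spread between these libraries, which may be technical.

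A T cell that recognises an antigen also reads a second signal from the cell presenting it. CD80 and CD86 give that signal through CD28 or damp it through CTLA-4, ICOS ligand acts on ICOS, and CD40 is the receptor through which T cells activate the presenting cell in return. PD-L1 and PD-L2, the ligands of PD-1, and VISTA and TIM-3 restrain T cells and myeloid cells. Resting microglia carry little of the activating machinery, and dendritic cells carry most of it, especially after maturation.

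Total counts ran from 5001385 to 13250289 per library, and CD36-positive libraries 1 and 3 were the shallowest. Levels are given as CPM, the count as a share of the library's TMM-scaled total. On principal components of log2 CPM library 1 stood apart from the rest on the second component and library 3 on the third. Cd36 itself averaged 219 against 50.3 CPM, a log2 fold change (CD36-positive over CD36-negative throughout) of 2.12 (SE 0.18). Microglia markers, among them Olfml3, were present in every library: 10 were tested, 0 passed, and their summed level was 7083 to 16329 CPM in the CD36-positive and 7229 to 17248 CPM in the CD36-negative group.

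None of the 9 genes passed the test between CD36-positive and CD36-negative cells. With edgeR's quasi-likelihood test at an adjusted p of 0.05, 0 were higher and 0 lower, where 2.61% of the 11594 genes tested were higher and 4.74% lower (7.36% in either direction). At an unadjusted p under 0.05 there were 2, Cd274 and Cd86, against 21.3% of all genes tested. The DESeq2 Wald test and limma voom also called 0. For no member did the 5 values of one group lie apart from the 5 of the other, as they did, higher, for 2.59% and, lower, for 5.82% of all genes tested. The median log2 fold change of the 9 was -0.36, against 0.02 over all genes tested. The intervals below say how large a difference each gene could still hold.

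**Figure D1:**
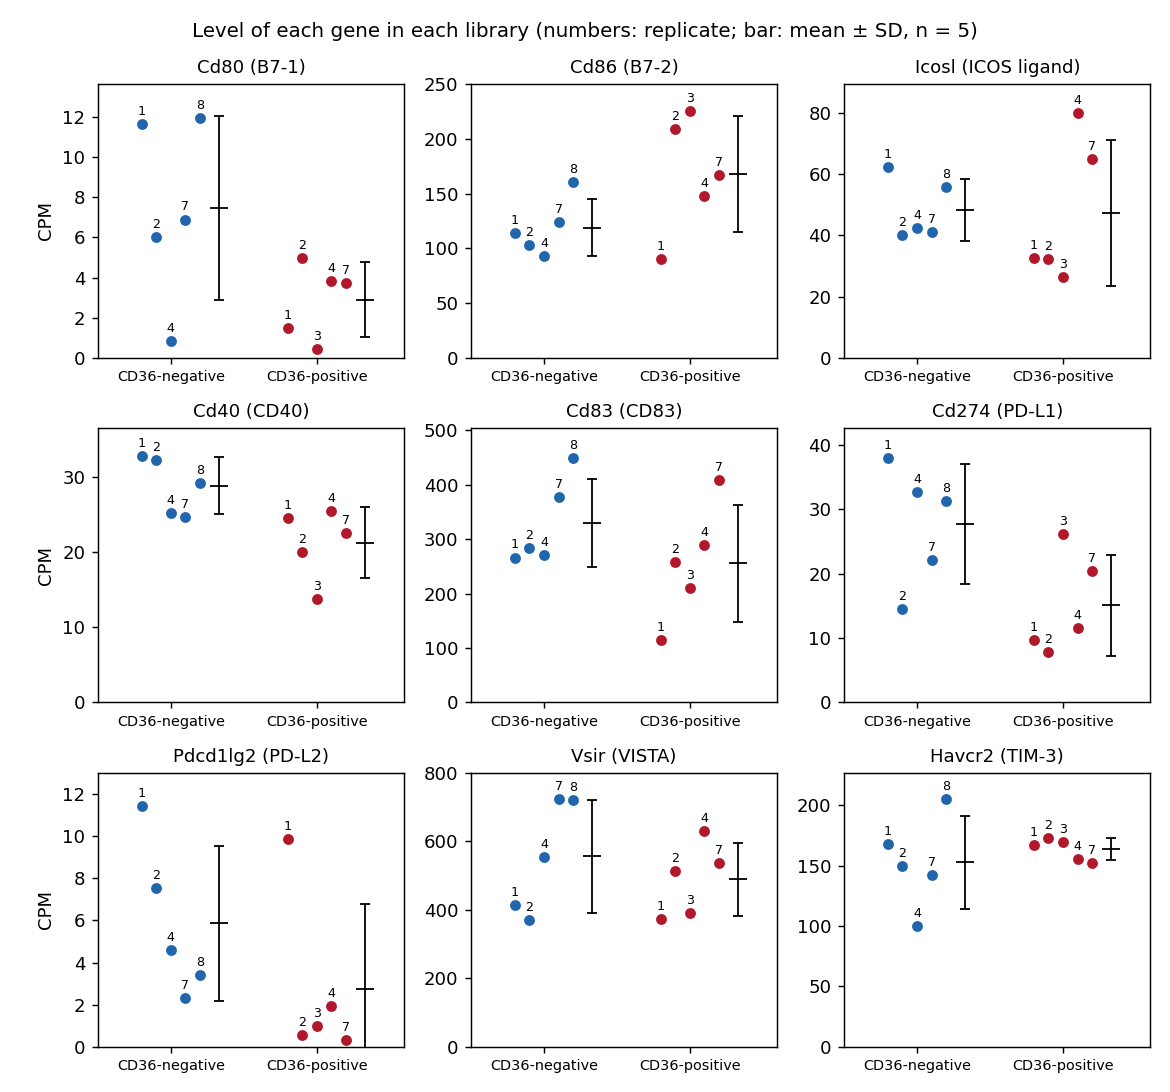
CPM of each of the 9 genes in each library, with CD36-negative libraries in blue and CD36-positive ones in red, replicate numbers above the points, and mean ± SD (n = 5) beside them, the lower SD bar of Pdcd1lg2 with CD36 being clipped at 0. The groups overlap in every panel, and 1 CD36-positive library (number 1) stands far above the other 4 for Pdcd1lg2.

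The genes of the CD28 ligands, Cd80 and Cd86, are both on chromosome 16 of GRCm38 (38455561 to 38496335, plus strand, and 36603869 to 36666081, minus strand). Cd86 was at 90.6, 209, 225, 148 and 167 CPM in CD36-positive libraries 1, 2, 3, 4 and 7, and at 114, 103, 92.8, 124 and 161 CPM in CD36-negative libraries 1, 2, 4, 7 and 8. Of the CD36-positive libraries 3 (those numbered 2, 3 and 7) lay above every CD36-negative one, and CD36-positive library 1 lay below all of them. The log2 fold change of Cd86 was 0.50 (95% interval 0.01 to 0.99, edgeR adjusted p = 0.224). Without that library it was 0.65, with an edgeR adjusted p of 0.0505, the smallest of any alternative run. Other omissions lowered it, to 0.37 without CD36-positive library 3 (adjusted p = 0.444) and to 0.395 without CD36-negative library 4 (0.461).

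Cd80 was far scarcer, with 136 counts over the CD36-positive group and 413 over the CD36-negative one. In the order used for Cd86 its levels were 1.49, 4.97, 0.43, 3.83 and 3.72 CPM in the CD36-positive libraries and 11.7, 6.04, 0.82, 6.89 and 11.95 CPM in the others. Of the CD36-negative libraries 4 lay above every CD36-positive one, and the remaining one, numbered 4, lay above only CD36-positive library 3. The log2 fold change was -1.36 (interval -2.86 to 0.15, edgeR adjusted p = 0.293), so a fall of more than 4-fold is inside the interval. Per kilobase of exon, Cd86 exceeded Cd80 in every library, by 56.2 to 764 times in the CD36-positive group and by 14.3 to 165 times in the CD36-negative group. The upper ends rest on 3 Cd80 counts in CD36-positive library 3 and 8 in CD36-negative library 4. The next highest ratios were 88.8 (CD36-positive library 1) and 26.3 (CD36-negative library 7).

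Icosl, the gene of the ICOS ligand (chromosome 10, 78069302 to 78083913, plus strand), averaged 47.3 ± 23.8 CPM with CD36 and 48.4 ± 10.2 CPM without it (SD, n = 5 each). CD36-positive libraries 4 and 7 held 80.1 and 65.1 CPM, above all CD36-negative ones, and libraries 1, 2 and 3 held 32.8, 32.3 and 26.4 CPM, below all of them. The log2 fold change of -0.03 (interval -0.64 to 0.58, edgeR adjusted p = 0.966) is thus a mean over CD36-positive libraries that fell on both sides of the other group. Leaving out libraries 1 and 3 turned it to 0.29, with an adjusted p of 0.668.

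Cd40 and Cd83 mark activation of the presenting cell: CD40 receives the signal of CD40 ligand, and CD83 keeps MHC class II and CD86 on the surface. Cd40 lies on chromosome 2 (165055627 to 165072948) and Cd83 on chromosome 13 (43784775 to 43803132), both on the plus strand. Cd40 was at 24.6, 20.0, 13.8, 25.5 and 22.6 CPM in CD36-positive libraries 1, 2, 3, 4 and 7 and at 32.9, 32.2, 25.3, 24.6 and 29.3 CPM in the CD36-negative ones. Only library 4 of the CD36-positive group reached into the range of the other group, and it did so at its lower end. The difference for Cd40 was -0.44 on the log2 scale, with an interval of -0.95 to 0.07 (adjusted p = 0.317 in edgeR). Cd83 was the most abundant of the 9 genes per length, at 256 ± 108 CPM with CD36 and 330 ± 81.2 CPM without it (SD, n = 5 each). CD36-positive library 1 had its lowest level (115 CPM) and CD36-negative library 8 its highest (450 CPM), and the log2 fold change was -0.36 (interval -0.92 to 0.20, adjusted p = 0.471 in edgeR). Its size moved with single libraries of the CD36-positive group, to -0.177 when library 1 was left out and to -0.599 when library 7 was. Omitting library 8 of the CD36-negative group gave -0.227. With libraries 1 and 3 of the CD36-positive group both left out it was -0.056 (adjusted p = 0.936).

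The genes of the PD-1 ligands, Cd274 (PD-L1) and Pdcd1lg2 (PD-L2), lie next to each other on chromosome 19, on the plus strand. On GRCm38 Cd274 runs from 29367455 to 29388095 and Pdcd1lg2 from 29410919 to 29471161. Cd274 was at 9.68, 7.79, 26.1, 11.5 and 20.4 CPM in CD36-positive libraries 1, 2, 3, 4 and 7, and at 37.9, 14.5, 32.7, 22.1 and 31.3 CPM in CD36-negative libraries 1, 2, 4, 7 and 8. Of the CD36-positive libraries 3 lay below every CD36-negative one, and libraries 3 and 7 lay within their range. Cd274 had a log2 fold change of -0.88 (SE 0.36, interval -1.63 to -0.12), and an adjusted p in edgeR of 0.161, the smallest of the 9. It was lower under every alternative run, from -0.725 to -1.16, with adjusted p from 0.0703 to 0.316.

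Pdcd1lg2 was near the limit of counting in most CD36-positive libraries, where 3 counts correspond to 0.24 to 0.56 CPM. CD36-positive libraries 2, 3, 4 and 7 held 5, 7, 17 and 4 counts (0.56, 1.00, 1.91 and 0.32 CPM), while library 1, the shallowest, held 53 (9.86 CPM). The CD36-negative libraries held 11.4, 7.55, 4.60, 2.30 and 3.43 CPM. All 4 of the low CD36-positive libraries lay below every CD36-negative one, and library 1 lay above 4 of the 5. Over all libraries the log2 fold change of Pdcd1lg2 was -1.13 (interval -2.91 to 0.64, edgeR adjusted p = 0.478). Over the fits that left out 1 library it ran from -0.743 to -2.62, the last without CD36-positive library 1 (edgeR adjusted p = 0.0522). Markers of mature dendritic cells summed to 173 CPM in that library, the lowest of the 10 libraries. Most of this sum was Tmem123, which held at least 151 CPM in every CD36-positive library, so it says little about the other markers. Conventional dendritic cell markers summed to 541 CPM there, in a CD36-positive range of 391 to 587 CPM. Its monocyte markers, at 751 CPM, were the highest of the CD36-positive group, but 704 CPM of this was Ccr2 alone. The part of these cells in the result was not tested.

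To let the sequence be read beside the values, and beside those of the NF-kB genes given further on, the bases before the start of the PD-1 ligand genes and of Icosl are shown, as given by RefSeq for GRCm38.p6. Windows of 250 bases before the RefSeq start were found for 6 of the 9 genes (Cd80, Icosl, Cd274, Pdcd1lg2, Vsir and Havcr2), and bases inside annotated exons are left out. The RefSeq starts need not be those of the GENCODE spans given here: that of Icosl lies 66 bases further in, and the window of Cd80 (chr16:38458683-38458932) lies inside its GENCODE span. Capitals mark matches on either strand to the NF-kB consensus or to GAGGAA, the core of the myeloid factor PU.1. For Cd274 (chr19:29367391-29367437, plus strand) only the stretch between its RefSeq start and the opposed start of Plgrkt is shown.
Cd274: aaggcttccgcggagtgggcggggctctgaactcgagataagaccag
Pdcd1lg2 (chr19:29410669-29410918, plus strand): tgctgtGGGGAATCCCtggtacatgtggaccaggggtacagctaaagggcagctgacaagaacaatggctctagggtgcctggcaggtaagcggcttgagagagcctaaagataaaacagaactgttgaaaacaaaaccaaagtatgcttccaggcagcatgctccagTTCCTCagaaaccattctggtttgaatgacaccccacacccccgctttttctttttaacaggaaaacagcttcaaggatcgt
Icosl (chr10:78069118-78069301, plus strand): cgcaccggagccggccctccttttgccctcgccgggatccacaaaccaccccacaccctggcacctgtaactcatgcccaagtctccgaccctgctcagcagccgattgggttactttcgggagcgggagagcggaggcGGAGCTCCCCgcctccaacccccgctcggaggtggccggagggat
The NF-kB consensus was found in the windows of Pdcd1lg2 (244 bases before its start) and Icosl (111 bases before its RefSeq start), and in 7.25% of all 32851 windows of this length. GAGGAA was found in those of Pdcd1lg2 and Havcr2, and in 23.3% of all windows. The interferon motif TTCNNNGAA, held by 7.02% of all windows, and the core of the interferon-stimulated response element, held by 2.98%, were in none of the 6. TGANTCA, the AP-1 motif, was in those of Cd80 and Havcr2 and in 6.75% of all. Motifs were searched on both strands of the whole 250 bases. These are matches of letters in a short window, not binding sites.

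The remaining inhibitory genes, Vsir and Havcr2, had the narrowest intervals. Vsir, the gene of VISTA (chromosome 10, 60346851 to 60372684, plus strand), ranged from 375 to 630 CPM (median 514) with CD36 and from 371 to 724 CPM (median 554) without it. Its log2 fold change was -0.19 (interval -0.64 to 0.27, edgeR adjusted p = 0.686). Havcr2, the gene of TIM-3 (chromosome 11, 46454935 to 46481255, plus strand), ranged from 153 to 173 CPM (median 167) with CD36 and from 99.7 to 205 CPM (median 150) without it. Its log2 fold change was 0.10 (interval -0.30 to 0.49, edgeR adjusted p = 0.818). The 5 CD36-positive libraries thus all lay inside the range of the CD36-negative ones, with an SD of 9.12 CPM against 38.4 CPM. For Havcr2 a difference of 2-fold in either direction is outside the interval, as it is for Vsir, Cd86, Icosl, Cd40 and Cd83. The intervals of Cd80, Cd274 and Pdcd1lg2 hold a fall of 2-fold.

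**Figure D2:**
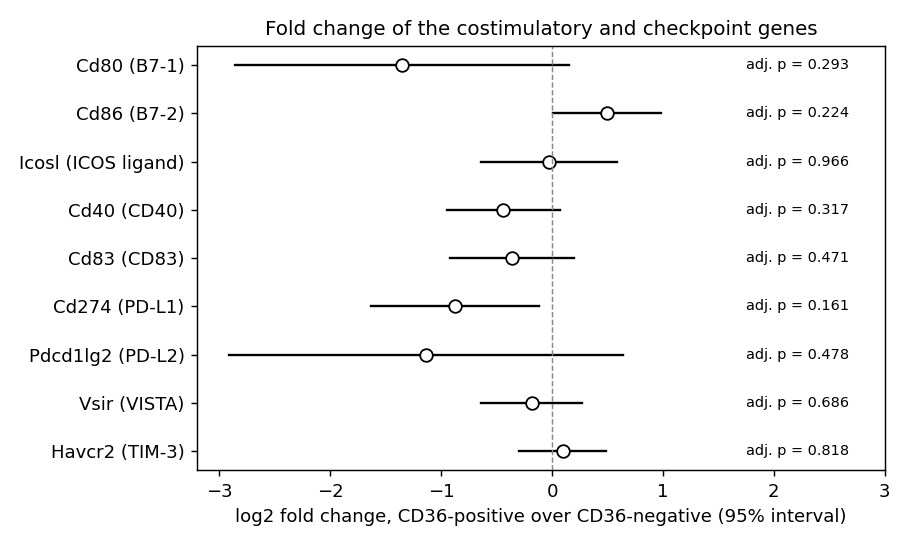
Log2 fold change of each gene, CD36-positive over CD36-negative, with its 95% interval and edgeR adjusted p. The intervals are widest for the scarce Cd80 and Pdcd1lg2, and only those of Cd86 and Cd274 leave out zero before adjustment.

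Set in order of level per kilobase of exon (CPM per kb, mean over 10 libraries), the genes ran from Cd83 (118) and Vsir (106) through Havcr2 (58.1), Cd86 (56.5), Icosl (17.0), Cd40 (8.39) and Cd274 (5.91) to Pdcd1lg2 (2.19) and Cd80 (1.40). The upper 4 lay above the lower 5 in every library: the lowest value of Cd86 was 35.7 and the highest of Icosl 28.5 CPM per kb. All other neighbours in this order overlapped in range. Cd83 exceeded Vsir in 7 of 10 libraries, Havcr2 exceeded Cd86 in 6, and Pdcd1lg2 exceeded Cd80 in 5. The PD-L1 gene exceeded the PD-L2 gene in 9 of 10, the exception being CD36-positive library 1. Exon lengths came from GENCODE M21, so unannotated or unused exons would shift these levels.

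**Figure D3:**
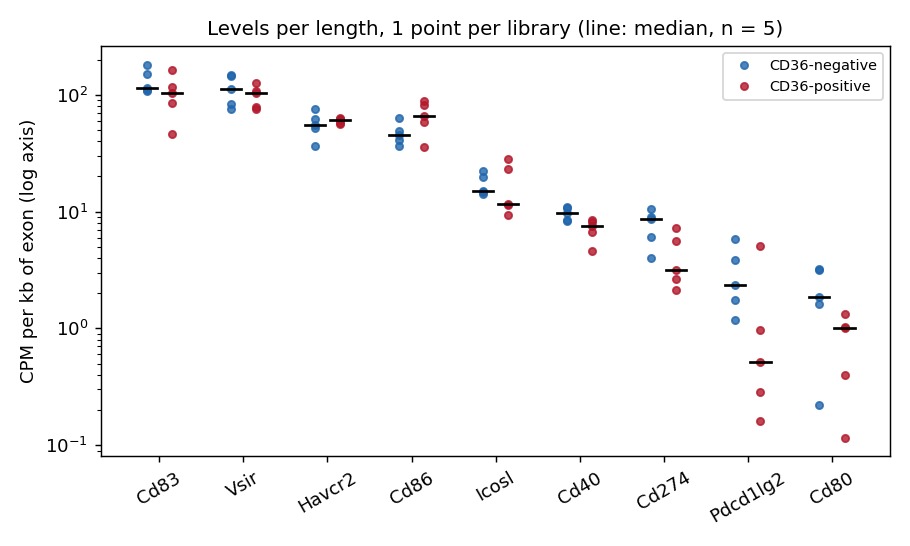
Level of each gene in CPM per kilobase of exon on a log axis, 1 point per library, with medians as lines (n = 5). Cd83, Vsir, Havcr2 and Cd86 form an upper group in all 10 libraries, and Cd80 and Pdcd1lg2 are the lowest.

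The partners that these proteins bind were tested next. Of 11 listed genes 10 were in the table and 7 tested, of which 0 were higher and 0 lower in edgeR (median log2 fold change -0.33). Both DESeq2 and limma voom called 1 higher, Lgals9, and 1 lower, Ceacam1, each of which encodes a ligand of TIM-3. Lgals9 (galectin-9) was at 448 ± 114 against 290 ± 68.2 CPM, a log2 fold change of 0.63 (edgeR adjusted p = 0.0835). Single omissions moved this to 0.75 (0.0208) without CD36-positive library 1 and to 0.56 (0.221) without CD36-negative library 4. Ceacam1 was at 42.5 ± 13.6 against 72.0 ± 12.5 CPM (-0.76, edgeR adjusted p = 0.0696). Pdcd1, the gene of the receptor PD-1, was detected in every library, at 20.3 ± 9.89 against 25.6 ± 9.87 CPM (edgeR adjusted p = 0.704). Selplg, whose product PSGL-1 binds VISTA, was the most abundant partner, at 768 ± 344 against 1279 ± 346 CPM (-0.74, edgeR adjusted p = 0.129; -0.96 and 0.0468 without CD36-positive library 4). Among partners carried by T cells, Cd28 had 116 and 269 counts over the CD36-positive and CD36-negative groups and Icos 81 and 110, and neither passed. Ctla4 had 6 and 21 and Cd40lg 6 and 16, too few to be tested. These partner genes were picked after their values were seen.

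Of 27 other costimulatory and checkpoint genes, 18 were tested, 5 were lower, 0 higher and 13 did not pass. Btla, an inhibitory receptor of lymphocytes and dendritic cells, fell most, from 69.5 ± 34.3 to 1.07 ± 0.81 CPM (-5.91 on the log2 scale, SE 0.51, with an adjusted p of 1.45e-06 in edgeR). Cd24a, a surface glycoprotein gene, fell from 117 ± 37.0 to 7.59 ± 3.60 CPM (-3.96, SE 0.34). Cd47, whose protein signals "do not eat me" through SIRPα, fell from 522 ± 77.0 to 259 ± 74.9 CPM (-1.01, SE 0.20), whereas its receptor gene Sirpa did not pass (-0.08, interval -0.46 to 0.29). Slamf7 (-1.24) and Cd200 (-3.66, 21 against 399 counts) also fell. Cd200 did not pass without CD36-negative library 1, 2 or 4 (adjusted p 0.0570, 0.0550 and 0.0538). DESeq2 called 7 lower and 1 higher. Its further lower calls were Cd200r1 (-1.51 in edgeR, adjusted p = 0.0518) and Tnfsf14 (-2.27, 0.0704). The higher one was Pvr (1.29 in edgeR, adjusted p = 0.100), whose values in the CD36-positive libraries all lay above the others. This held for 2.59% of all genes tested. Of this list 7 genes lay wholly below the other group, as did 5.82% of all genes tested.

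Of 17 signalling genes downstream of CD40, all tested, 7 were lower in CD36-positive cells, 0 higher and 10 did not pass (median log2 fold change -0.58). Traf1, an adaptor and target of NF-kB, was at 3.86 ± 2.40 against 61.3 ± 11.8 CPM (-3.96, SE 0.37, edgeR adjusted p = 3.05e-06). The NF-kB subunit genes Relb (27.4 ± 6.10 against 75.3 ± 17.6 CPM, -1.45), Nfkb2 (-1.12) and Nfkb1 (-0.94) fell, as did the kinase gene Ikbkb (-0.89) and the adaptor gene Traf5 (-1.07). Map3k14 (-0.84, adjusted p = 0.0422), picked after its values were seen, encodes the kinase of the non-canonical route and did not pass in 7 of the 10 fits that left out 1 library, nor with voom (adjusted p = 0.0622). Rel and Rela had log2 fold changes of -0.62 and -0.41 and did not pass. The line of Nfkb2 crosses a block edge of the damaged file, so its values are less certain. Traf5 did not pass without CD36-negative library 1, 4, 7 or 8 (adjusted p 0.0541, 0.0529, 0.0938 and 0.0565), nor without CD36-positive libraries 1 and 3 (0.0732).

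Of 13 genes of interferon-gamma signalling and of PD-L1 control, 3 were lower, 0 higher and 10 did not pass (median -0.19). Jak2, the kinase of the interferon-gamma receptor, fell from 137 ± 21.05 to 40.4 ± 12.1 CPM (-1.77 on the log2 scale, SE 0.21, with an adjusted p of 3.91e-05 in edgeR). Ciita, the activator of MHC class II transcription, fell from 221 ± 55.7 to 47.1 ± 16.6 CPM (-2.24). Stat3 was at -0.67 and was not called in 8 of 10 fits without 1 library. Irf1, a transcription factor gene induced by interferon-gamma, did not pass (-0.19, interval -0.59 to 0.22), nor did Cmtm6, which keeps PD-L1 on the surface (-0.46, adjusted p = 0.281).

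**Figure D4:**
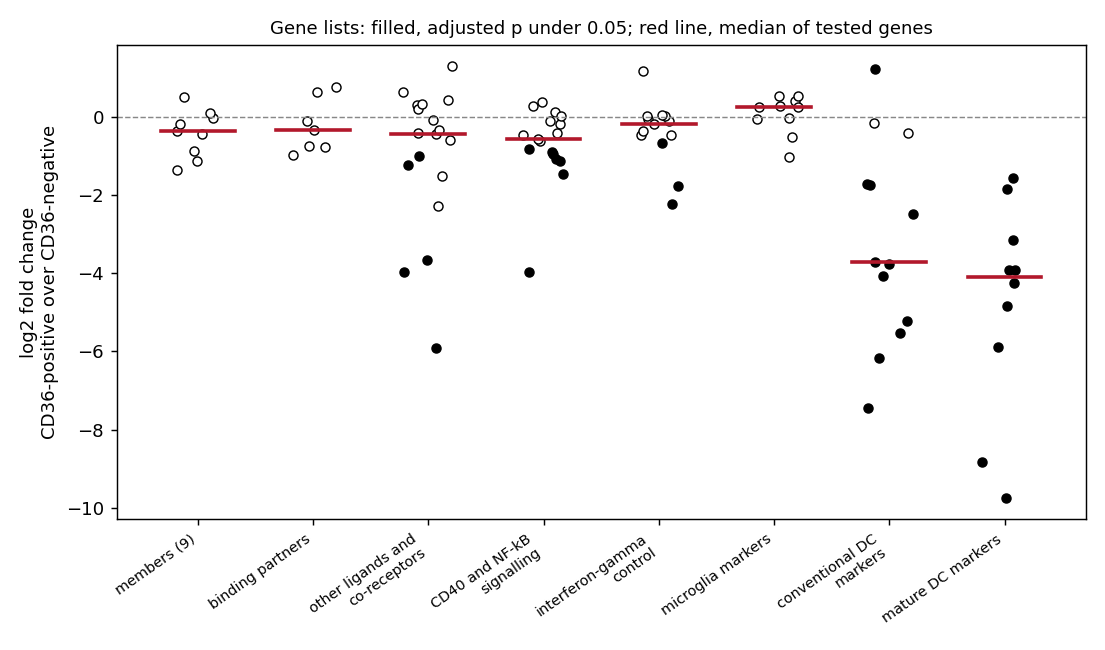
Log2 fold change of every tested gene of 8 lists, filled where the edgeR adjusted p was under 0.05, with the median as a red line. The 9 members hold no filled point, the CD40 and NF-kB list holds 7, and all 10 markers of mature dendritic cells are filled and below zero.

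Most tested markers of dendritic cells, monocytes, neutrophils and T and NK cells were lower in CD36-positive cells. No tested marker of B cells or border macrophages passed as lower. Of 13 markers of conventional dendritic cells 10 were lower and 1 (Cadm1) higher, and the summed level was 391 to 587 CPM with CD36 against 1152 to 1594 CPM without it. Naaa, the most abundant of them, did not pass (-0.41). All 10 markers of mature dendritic cells were lower (173 to 288 against 838 to 1192 CPM). Among them were Ccr7, at 7.04 ± 9.74 against 208 ± 54.9 CPM, and Tmem123. Of 10 monocyte markers 8 were lower (283 to 751 against 944 to 1864 CPM), among them S100a6 (-4.93) but not Ccr2 (0.01). Of 11 tested neutrophil markers 9 were lower (84.7 to 192 against 356 to 904 CPM), S100a9 with -5.74 but not Csf3r (-0.53), and Retnlg, G0s2 and Ly6g were at 0 in every CD36-positive library. Ly6g, not tested, was also at 0 in 3 CD36-negative libraries, with 13 counts over that group. Of 6 tested T and NK cell markers 5 were lower (2.98 to 21.2 against 68.1 to 351 CPM), Nkg7 with -6.50, and Gzma had 5 against 2256 counts. Prf1 was at 0 in every CD36-positive library. Of 2 tested B cell markers 0 passed (Cd79b 0.13). Of 5 tested markers of border macrophages 2 were higher, Ms4a7 (1.37) and Pf4, and Mrc1 did not pass (-0.01). Cd163 (-3.30, edgeR adjusted p = 0.0691) and Cbr2 (-1.79, 0.113) pointed lower but did not pass. Lyve1, not tested, had 12 against 129 counts. No dendritic cell or monocyte marker was at 0 throughout the CD36-positive group, but some were nearly so. The mature dendritic cell markers Apol7c and Ccl17 had 1 and 2 counts there, each at 0 in 4 of the 5 libraries. In bulk libraries fewer cells of a type and less RNA per cell cannot be told apart, and the part of these cells in the results above was not tested.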

How the data were processed

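The authors deposited 1 table of expected counts per gene symbol, not normalized, with 1 column per library; 91.9% of values were whole numbers. Tools named, per the submitters' processing notes, were HISAT2 2.1.0, StringTie 1.3.1, Bowtie2 2.2.8 and fastp 0.18.0, with mm10 as the build. The counting program and its use of strand are not given in the sources used here. Of 22008 lines 8 damaged and 131 repeated ones were dropped; damage followed blocks of 2048 bytes, and no line of the 9 genes crosses a block edge. For 3 repeated symbols the line with the higher mean was kept. No value of 27 symbols turned into dates was used.

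Expected counts were rounded. Low genes were removed with filterByExpr (minimum count 10), libraries were scaled with TMM, and the test was that of edgeR 4.0.16 in R 4.3.3 (glmQLFit, glmQLFTest, group as the only term, Benjamini-Hochberg over all genes, threshold 0.05). SE and 95% intervals come from the test's statistic and degrees of freedom; log2 CPM used a prior count of 2. Groups and replicate numbers follow the description labels. Replicates differed by more than sampling noise (a chi-square of 23.5 to 117 for each degree of freedom). Alternatives were DESeq2 1.42.0 size factors and Wald test, limma 3.58.1 voom with quality weights, other filters, replicate blocks, omitted libraries, an adjusted p of 0.01 and, added after seeing the data, a robust fit and omission of block edge lines.

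The genes and lists were chosen with earlier results of these data known. The rule named all 9 genes, each pathway gene that passed (the 6 with the smallest p where more did) and the 2 most abundant markers per list; genes most like a member in pattern were to be named for members that passed, and none did. Some genes that the rule or the lists hold are not reported here.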

Additional observations from a re-analysis of the deposited data

Results flagged for a closer look

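Pdcd1lg2 in CD36-positive library 1, at 9.86 CPM, was far from the other 4 libraries of its group, the next being at 1.91 CPM. The gap was a 0.833 share of the group's whole range. Of the 18 groups of 5 values examined (9 genes in 2 groups) this was the only 1, and chance alone gives about 1 in 20. That library was the shallowest, with 53 counts of the gene.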

How the results depend on the processing

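The count of members called was 0 in each direction under all 21 alternatives. Same-numbered libraries (1, 2, 4 and 7) had correlations of deviations of 0.03, 0.13, 0.10 and 0.10. The highest correlations with other numbers were 0.124, 0.034, 0.109 and 0.102, and 1 of 4 correlated best with its own number. With 4 pairs and values this close, the check cannot decide whether the replicate numbers pair the libraries. With the replicate block from the description label 184 genes were higher, against 303. Higher genes numbered 187 without CD36-positive libraries 1 and 3, 533 with the DESeq2 Wald test and 90 at an adjusted p of 0.01, where 330 were lower (550 in the reported fit). Leaving out 1 library gave 132 (without CD36-negative library 4) to 380 higher genes. Omitting CD36-negative library 7 gave 183, library 3 of the CD36-positive group 195 and library 8 of the CD36-negative group 197. Among binding partners 1 was higher without both libraries, with DESeq2 and with voom, and 1 lower with no filter, DESeq2 and voom (Ceacam1 each time) and with the title number as block (Selplg, -0.81, adjusted p = 0.0251); single omissions gave 0 to 1 in either direction. With the description block Traf5, Map3k14 and Stat3 did not pass (adjusted p 0.0711, 0.161 and 0.0832), nor did Map3k14 with the title block (0.0703). Of other ligands DESeq2 called 1 higher. Icosl turned to 0.094 with the description block, 0.285 without both libraries, 0.006 with voom and, without 1 library, to 0.025, 0.072, 0.076, 0.077 and 0.122, in a range from -0.305. Vsir turned to 0.02 with the description block and 0.003 without both libraries, and Havcr2 to -0.046 without CD36-negative library 4, in a range up to 0.222. With 10 CPM in 5 libraries Cd80 and Pdcd1lg2 were not tested. Cd80 moved to -0.52 with the description block, and Pdcd1lg2 to -1.91 and, with voom, to -2.35. Where a setting changed a value, the cause was not tested. Low counts limit Cd80 and Pdcd1lg2.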

Other observations

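Vsir and the microglia markers stood in nearly the same order of libraries within each group, a pattern seen in the data after they were examined. In the CD36-positive group both were lowest in library 1, then 3, 2, 7 and 4, with Vsir between 375 and 630 CPM and the summed markers between 7083 and 16329 CPM. In the CD36-negative group libraries 2, 1 and 4 were the lowest in both, in that order, and libraries 7 and 8, at 724 and 721 CPM of Vsir, held 16954 and 17248 CPM of the markers. With 5 libraries in each group no correlation was computed.

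The PD-1 ligand genes share their stretch of chromosome 19 with Jak2, which fell (log2 fold change -1.77). Of the protein-coding genes between Jak2 and Cd274, Plgrkt, whose start faces that of Cd274, was at 101 against 90.3 CPM (0.16, edgeR adjusted p = 0.644). Insl6 was at 2.18 against 5.53 CPM (-1.37, adjusted p = 0.344). Beyond Pdcd1lg2, Ric1 had a log2 fold change of 0.48 (adjusted p = 0.704). These neighbours were picked after the values of Jak2 and Cd274 were seen.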
